A study of Mus musculus with 2 samples.

Results

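Genes of potassium channels and voltage-gated calcium channels were examined in a map of N6-methyladenosine (m6A), the most common internal mark of mRNA, in the mouse uterus. The set was made of the protein-coding genes of the mm10 annotation whose symbols start with Kcn or Cacn, without Kcnma1, Kcnmb1, Kcnq1 and Cacna1c. It held 116 of the 21787 protein-coding genes. A peak was given to a gene when its summit lay inside the span from gene start to gene end, exon or intron, which gave 200 of the 38366 deposited peaks. The prefix rule brings in a few genes that are not channels themselves, such as the AMPA receptor auxiliary subunits of the Cacng family.

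The measurement was methylated RNA immunoprecipitation sequencing (MeRIP-seq), in which RNA fragments bound by an anti-m6A antibody are set against the unselected RNA. The immunoprecipitated (IP) group held 1 library of wild-type C57BL/6 whole uterus, labelled as an equal pool of gestation days 4 and 8. The input group held 1 library of C57BL/6 whole uterus taken without antibody, and its label names no day and no pooling. Replicates were lacking, so the values describe these libraries alone, no test between groups was possible, and the days cannot be told apart. The peak names in the file mention day 8 and not day 4, so the pooling rests on the label.

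Some summits in the list rested on few fragments. Over all peaks the median summit had 29 IP fragments over a local background of 3.33 scaled fragments, and the median fold enrichment was 6.16. Fold enrichment is the authors' ratio of IP fragments to local background at the summit, with 1 added to each. Intervals in parentheses after a fold give the exact 95% Poisson range of the IP fragment number, with the background taken as known, and they cover counting error only. Peaks were present in all 4 uterine identity genes checked (Pgr, Esr1, Hoxa10 and Hoxa11) and in all 6 smooth muscle markers, whose highest folds ran from 3.06 to 30.3. They were also present in 4 of 4 stromal, 6 of 6 epithelial, 5 of 5 endothelial and 4 of 5 immune markers. Over all protein-coding genes 55.7% had a peak, and the marker lists are small and were not tested against this share. Of 10 neuronal markers 3 had a peak, with highest folds of 14.4 in Stmn2, 7.42 in Rbfox3 and 5.47 in Tubb3, and none was listed in Snap25, Syt1, Elavl3, Elavl4, Uchl1, Nefl or Nefm. Of 8 markers of heart and skeletal muscle 2 had one, Nppa at 12.4-fold and Tnnt2 at 10.5-fold. The part of these other cell types in the peaks below was not tested. Absence from the list does not separate a lack of methylation from a lack of expression or of coverage, and in bulk tissue fewer cells of a type cannot be told apart from less RNA per cell.

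Potassium channels let potassium leave the cell and pull the membrane potential down, while voltage-gated calcium channels open on depolarisation and admit the calcium that starts contraction of the myometrium, the muscle of the uterine wall. The pore is built by alpha subunits, and auxiliary subunits set its trafficking, gating and calcium sensitivity. Potassium channels are known to keep the myometrium quiet through pregnancy. m6A is placed on nascent RNA mainly near stop codons and in long exons, and it is read by proteins that alter splicing, stability and translation.

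Peaks were found in 61 of the 116 channel genes (52.6%, exact Clopper-Pearson 95% interval 43.1 to 61.9), against 55.7% of all protein-coding genes. The share is near that background, which is not matched for gene span, and is not a result about the family. Of the 61 genes, 22 held 1 peak, 15 held 2 and 12 held at least 5. The last count is 10.3% of the channel genes, against 8.33% of all protein-coding genes. A peak of at least 10-fold was present in 26 channel genes (22.4%), against 17.5% of all protein-coding genes. The 61 genes with a peak had a median span of 57.97 kb, and the 55 without one had a median span of 32.3 kb.

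Channel genes are long, with a median span of 39.1 kb against 17.2 kb for all protein-coding genes, and longer spans hold more summits. Among channel genes of under 10 kb, 9 of 21 had a peak (42.9%), against 36.9% of all genes in that class. Between 10 and 50 kb the count was 19 of 42 (45.2%), against 61.6% of all genes. Between 50 and 200 kb it was 17 of 30 (56.7%), against 74.4% of all genes. At 200 kb or more it was 16 of 23 (69.6%), against 77.1% of all genes. The channel share was below that of all genes in the 3 longer classes and above it in the shortest. The span classes were set with the values in view.

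**Figure D1:**
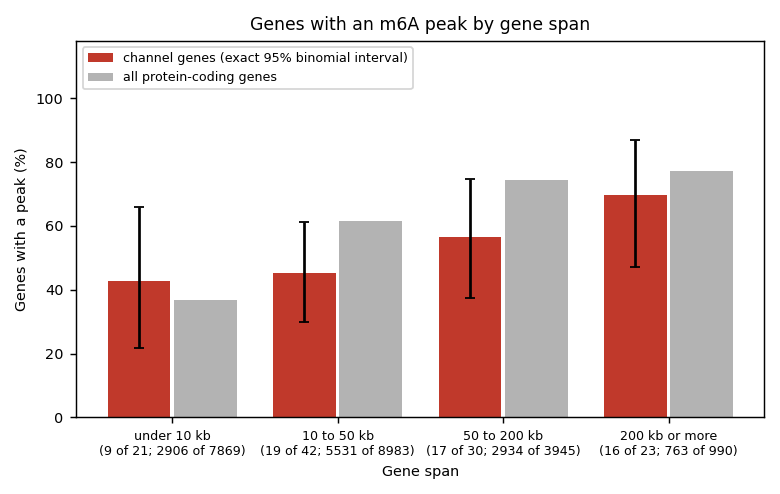
Percentage of genes with at least 1 m6A peak summit in the span (y axis) for 4 classes of gene span (x axis), with the channel genes in red beside all protein-coding genes in grey. Bars carry exact 95% binomial intervals for the channel genes, and the counts stand under each pair. The red bar is above the grey bar for spans under 10 kb (42.9% and 36.9%) and below it in the other 3 classes.

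The peaks of channel genes rested on thinner coverage than those of all genes. Taking each gene at its highest peak, the median fold was 9.11 over the 61 channel genes (quartiles 6.84 and 12.3), against 8.04 over the 12134 peak-carrying protein-coding genes (quartiles 5.85 and 10.9). The median depth at that peak was 20 IP fragments over a background of 1.24 in channel genes, against 35 fragments over 3.09 in all genes. In 10 of the 61 channel genes (16.4%) the background stood at the genome-wide level of 0.462 fragments, against 6.09% of all peak-carrying genes. The score that grows with depth turned the order: taking each gene at its highest −log10 q, the median was 20.2 in channel genes and 23.4 in all genes. The interval of the highest peak lay wholly above the median of 8.04 in 18 channel genes, wholly below it in 4, and across it in 39. The same counts were not made over all peak-carrying genes, so these describe single genes and are not a result about the family. The part of depth in the higher median fold was not tested.

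**Figure D2:**
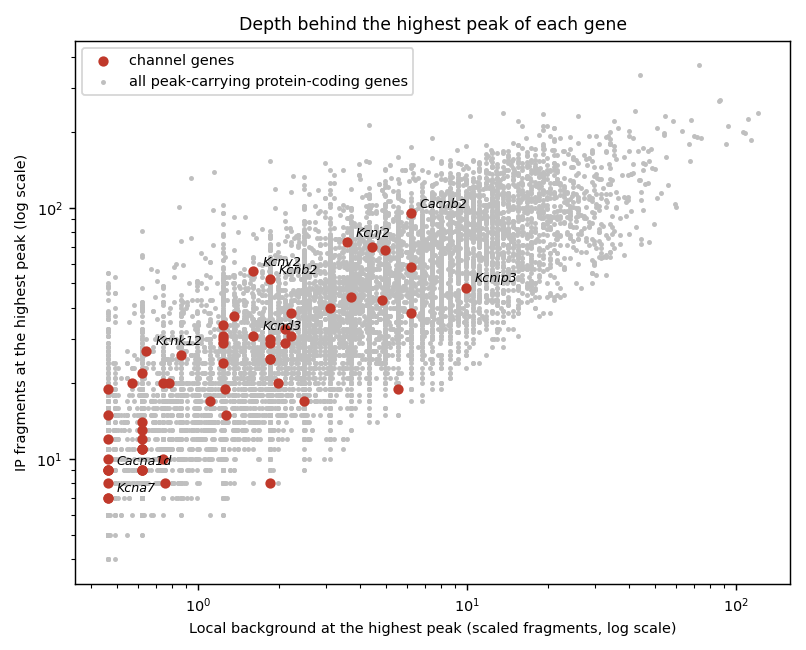
IP fragments at the highest peak of each gene (y axis, log scale) against the local background there (x axis, scaled fragments, log scale), for the 61 channel genes in red and all peak-carrying protein-coding genes in grey. The red points crowd the lower left, with a median of 20 fragments over 1.24, and Cacnb2 has the most fragments of the channel genes, 95.

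Some peaks covered the places where channel transcripts start. Windows of 250 bases before to 50 bases after each annotated start were taken from the RefSeq table of GRCm38.p6, and 86 of the 116 channel genes matched an entry. Of the 43 matched genes with a peak, 7 (16.3%) had a peak over such a window, namely Kcnk2, Cacnb2, Kcnq5, Kcns3, Kcnn3, Kcnn4 and Kcnk12, against 23.6% of all matched protein-coding genes with a peak. The summit itself fell inside the window in 4 of them, Kcnk2, Cacnb2, Kcnq5 and Kcns3 (all matched genes with a peak, 2.68%). The sequences around those 5 start sites are shown because they are the stretches on which these summits sit. Each runs from 200 bases before the start to 30 bases after it, 5′ to 3′ on the strand of the gene. The 30 bases that follow from the start shown are in capitals. All 5 stretches lie inside the annotated gene span, which reaches further upstream, so bases in small letters may also be transcribed.
Kcnk2 internal start, chr1:189343324-189343553, minus strand: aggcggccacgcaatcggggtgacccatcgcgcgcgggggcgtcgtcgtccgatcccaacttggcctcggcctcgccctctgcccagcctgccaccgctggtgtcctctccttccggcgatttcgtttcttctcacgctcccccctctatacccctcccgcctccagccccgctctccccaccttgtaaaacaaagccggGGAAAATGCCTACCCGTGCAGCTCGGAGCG
Kcnk2 outer start, chr1:189402244-189402473, minus strand: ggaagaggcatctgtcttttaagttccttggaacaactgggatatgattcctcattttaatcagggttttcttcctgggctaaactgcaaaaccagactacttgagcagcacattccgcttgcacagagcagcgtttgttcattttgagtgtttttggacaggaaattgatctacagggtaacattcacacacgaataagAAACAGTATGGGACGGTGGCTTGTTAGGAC
Cacnb2 start, chr2:14604106-14604335, plus strand: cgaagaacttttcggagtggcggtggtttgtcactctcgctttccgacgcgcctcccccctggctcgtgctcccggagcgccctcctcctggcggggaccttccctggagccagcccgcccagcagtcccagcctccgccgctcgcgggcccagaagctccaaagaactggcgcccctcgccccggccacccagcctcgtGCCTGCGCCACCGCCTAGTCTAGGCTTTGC
Kcnq5 start, chr1:21961913-21962142, minus strand: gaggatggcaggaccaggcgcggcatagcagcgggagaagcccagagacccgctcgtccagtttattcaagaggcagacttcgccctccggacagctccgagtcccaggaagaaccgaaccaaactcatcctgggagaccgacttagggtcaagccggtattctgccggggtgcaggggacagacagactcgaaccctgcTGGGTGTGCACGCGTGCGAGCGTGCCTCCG
Kcns3 start, chr12:11150813-11151042, minus strand: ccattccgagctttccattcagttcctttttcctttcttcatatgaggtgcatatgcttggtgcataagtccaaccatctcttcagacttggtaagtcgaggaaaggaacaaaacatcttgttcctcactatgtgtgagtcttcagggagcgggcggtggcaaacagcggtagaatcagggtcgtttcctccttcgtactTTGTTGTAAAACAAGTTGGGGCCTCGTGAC

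Kcnk2 encodes TREK-1, a stretch- and lipid-gated potassium channel of the K2P family that is found in myometrium. RefSeq lists several internal starts in it, and a peak of 911 bases had its summit 21 bases upstream of the one shown, with 9.79-fold enrichment (7.03 to 13.3) from 39 IP fragments. That summit also lay 333 bases downstream of another listed internal start. It lay inside both Kcnk2 and the long non-coding gene A430027H14Rik, so without strand the transcript of origin cannot be told apart. At the outer Kcnk2 start of those shown, the summit lay 39 bases upstream of that start and 470 bases inside the gene span. It reached 4.64-fold (3.32 to 6.32) from 38 fragments in a single gene. In Cacnb2 the summit lay 15 bases downstream of the start, at 6.16-fold (3.05 to 11.5) from 8 fragments, inside Cacnb2 and the non-coding gene Gm32741. In Kcnq5 it lay 25 bases upstream of the start shown and 683 bases inside the span, at 5.52-fold (2.73 to 10.3) from 8 fragments. In Kcns3 it lay 152 bases upstream of the start shown and 174 bases inside the span, at 10.3-fold (5.92 to 16.8) from 14 fragments. Cacnb2, Kcnq5 and Kcns3 thus rest on few fragments at these sites, and Kcnk2 on more.

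The motifs GGACT and GGACA, forms of the sequence that the m6A writer is known to prefer, were searched in the full windows on both strands. On the transcript strand GGACA occurred at positions -44, 27 and 46 of the outer Kcnk2 start and at -233, -111 and -23 of the Kcnq5 start, counted from 1 at the start site and without a zero. No window of these 5 held GGACT on the transcript strand. On the opposite strand GGACT occurred at -76 in Cacnb2, -100 in Kcnq5 and -133 in Kcns3, and GGACA at -99 of the internal Kcnk2 start. At least 1 of the motifs on the transcript strand is present in 46.7% of the 21263 windows of protein-coding genes, and on the opposite strand in 47.0%, so a match is common.

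The pore-forming subunits of voltage-gated potassium (Kv) channels carried a peak in 17 of 39 genes (43.6%), with 80 summits in all. The share of 55.7% over all protein-coding genes lay inside the exact 95% interval of each of the 9 role groups. These intervals are wide, from 6.76 to 93.2 in the alpha2delta group, and the share is not matched for gene span. They therefore cannot decide whether a group differs from all genes. All 3 Kcnd genes had peaks. In contrast, 1 of 8 Kcnh genes and 3 of 8 Kcna genes had one. The counts within subfamilies are small, and their difference was not tested. Kcnv2, which encodes a modifier subunit that is silent on its own and is known from photoreceptors, held the highest fold of any channel gene. Its peak (NCBI Gene 240595, mm10 chromosome 19, 27322167 to 27323496) reached 21.9-fold (16.6 to 28.3) with 56 IP fragments where the background was 1.61, and its summit lay 783 bases inside the gene. The second Kcnv2 peak reached 6.16-fold (4.17 to 8.81).

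Kcnb2, which encodes the delayed rectifier Kv2.2 (NCBI Gene 98741, chromosome 1), held 14 peaks. The highest spanned 15312383 to 15313000 and reached 18.6-fold (13.96 to 24.3) from 52 fragments. Another at 15710001 to 15711620 reached 17.1-fold (11.9 to 23.8) from 33 fragments, and these intervals overlap. The remaining 12 Kcnb2 peaks ran from 4.47-fold to 9.94-fold, and 5 of the 14 summits lay in a further annotated gene.

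Kcnd genes encode the Kv4 channels of the fast A-type current, which delays firing. Kcnd3, for Kv4.3 (NCBI Gene 56543, chromosome 3), held 12 peaks, the lowest of which was 2.44-fold. The highest at 105658474 to 105658740 reached 12.3-fold (8.47 to 17.3) from 31 fragments. The best covered, at 105668843 to 105670273, reached 11.6-fold (9.23 to 14.3) from 82 fragments, and 4 of the 12 summits lay in the last 10% of the gene. Kcnd2, for Kv4.2, held 7 peaks with a highest of 10.9-fold (6.43 to 17.6) from 15 fragments at the genome-wide background. Kcnd1 held 2, with a highest of 8.85-fold (5.50 to 13.6).

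Kcnq5 encodes Kv7.5, a channel of the slow M-type current that is also found in smooth muscle. Of its 10 peaks the lowest was 3.91-fold, and the highest, at 21763759 to 21764395 of chromosome 1, reached 9.11-fold (6.02 to 13.3) from 25 fragments. Kcnh1, for the ether-a-go-go channel EAG1, held 2 peaks with a highest of 13.4-fold (8.43 to 20.3) from 20 fragments. Kcnh2, whose ERG channel repolarises the heart and acts in myometrium, had none. Kcna6, for the shaker channel Kv1.6, reached 14.3-fold (9.87 to 20.1) from 31 fragments, 294 bases before its end. The other 4 Kcna6 summits lay inside the non-coding gene Gm33581 as well.

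**Figure D3:**
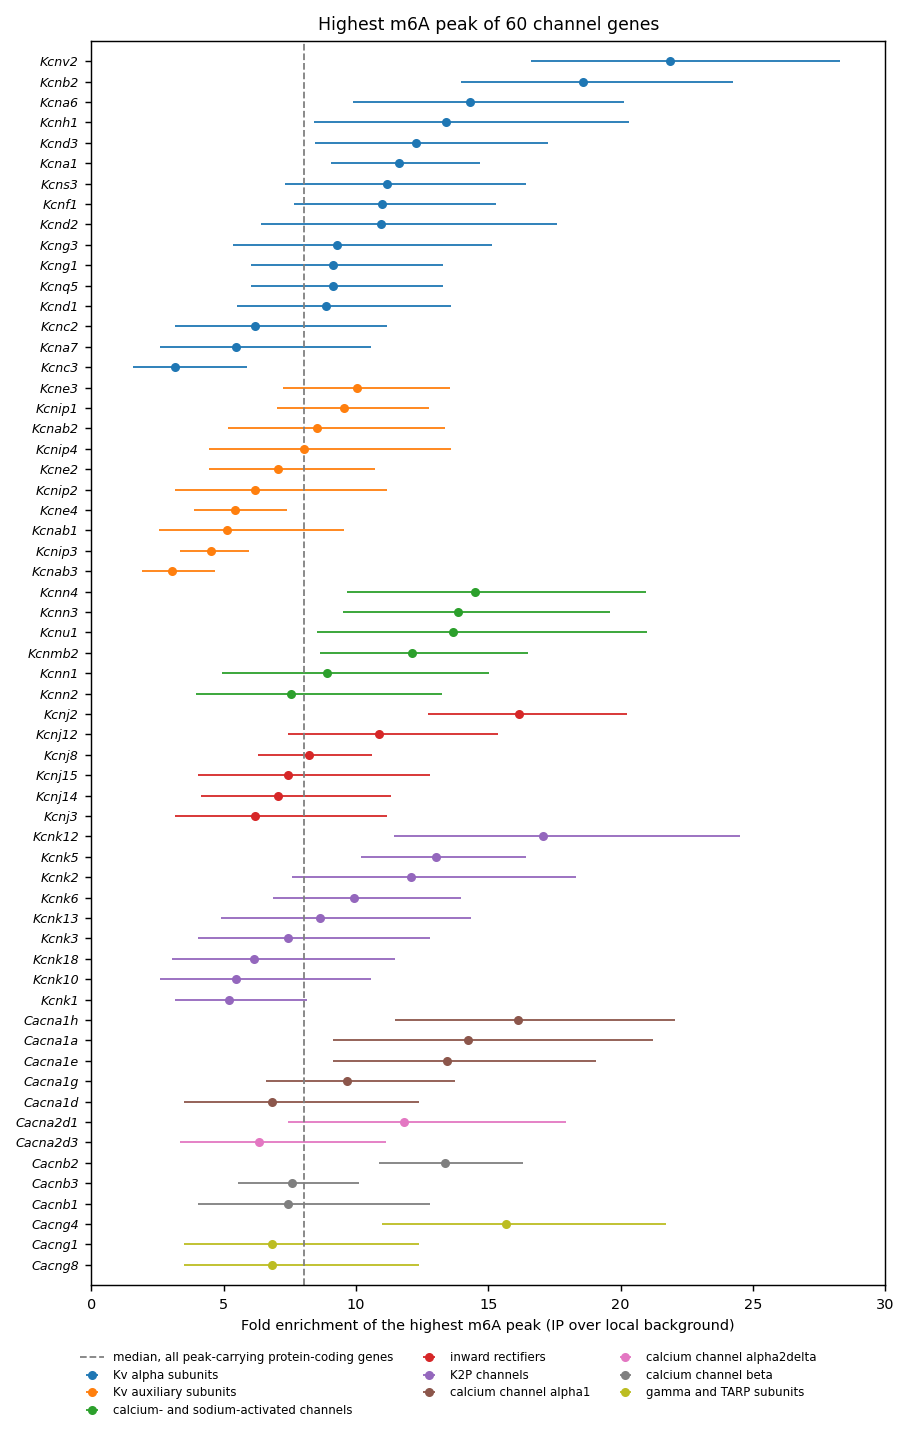
Fold enrichment of the highest m6A peak (x axis) in 60 of the 61 channel genes that have one (y axis), grouped and coloured by role. Points are the authors' fold, bars are the exact 95% Poisson ranges, and the dashed line is the median of 8.04 over all peak-carrying protein-coding genes. Kcnv2 at 21.9-fold and Kcnb2 at 18.6-fold stand at the top, and most bars cross the line.

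Auxiliary subunits of the Kv channels carried a peak in 10 of 13 genes (76.9%, 46.2 to 94.96), against 55.7% of all protein-coding genes. With only peaks of −log10 q of at least 5 the count was 8, against 53.1% of all genes. With only summits in 1 gene it was also 8, against 51.1%. All 4 Kcnip genes, which encode calcium-binding partners of Kv4, and all 3 Kcnab genes, the cytoplasmic beta subunits, had one. Their folds were modest, with a median highest fold of 6.62 and 1 gene at 10-fold or more. That gene, Kcne3, whose single-pass subunit partners the Kcnq1 channel in epithelia, reached 10.03-fold (7.24 to 13.6) from 40 fragments, 291 bases before its end. Kcnip1 came next at 9.56-fold (7.01 to 12.8), but the summit also lies in Kcnmb1. With summits in a single gene, Kcnip1 kept 4.03-fold (1.99 to 7.50) from 8 fragments. Kcne4, a partner of Kcnq channels found in smooth muscle, held 2 peaks, the higher at 5.43-fold (3.89 to 7.41), and both summits lie in Gm29536 too. Kcnab1 held a peak of 5.13-fold (2.54 to 9.56) from 8 fragments, and its summit also lies in the non-coding gene A730090N16Rik. Kcne1, Kcne1l and Kcnrg had no peak.

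The group of calcium- and sodium-activated channels carried a peak in 6 of 10 genes, including all 4 Kcnn genes, against 55.7% of all protein-coding genes. By its symbols the group also takes in the Kcnmb auxiliary subunits and the pH-gated Kcnu1. The Kcnn genes encode small- and intermediate-conductance channels that respond to calcium through bound calmodulin. Kcnn3, for SK3, whose overexpression in mice is known to disturb labour (NCBI Gene 140493, chromosome 3), held 4 peaks. The highest spanned 89520117 to 89521477 and reached 13.9-fold (9.50 to 19.6) from 30 fragments, with its summit 344 bases from the gene start. The others reached 9.82-fold (6.59 to 14.1), 9.78-fold (7.19 to 13.01) and 4.33-fold (1.98 to 8.69), and the second of these lay 575 bases before the gene end. Kcnn4, the intermediate-conductance channel of blood and epithelial cells (NCBI Gene 16534, chromosome 7), reached 14.5-fold (9.64 to 20.97) at 24370267 to 24370497, with the summit 555 bases from the gene start. Its end peak was better covered and lower, at 4.78-fold (3.58 to 6.25) from 51 fragments, and the intervals of these peaks do not overlap. Kcnn2, for SK2, held 1 peak of 7.53-fold (3.96 to 13.3).

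Among the other genes of that group, Kcnu1, a pH-gated channel known from sperm, reached 13.7-fold (8.51 to 20.98) from 19 fragments at the genome-wide background. Kcnmb2, a subunit that inactivates the large-conductance calcium-activated channel, reached 12.1-fold (8.65 to 16.5) from 38 fragments. Kcnmb3, Kcnmb4, Kcnt1 and Kcnt2 had no peak, Kcnt2 in spite of a span of 368389 bases.

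Inward rectifiers, which hold the resting potential, carried a peak in 6 of 15 genes (40%), against 55.7% of all protein-coding genes. Kcnj2, for Kir2.1 (NCBI Gene 16518, chromosome 11), had a single broad peak at 111071633 to 111073402 of 16.2-fold (12.7 to 20.3) from 73 fragments. Its lower bound is above the fold of the other 5, but its interval overlaps those of Kcnj12 and Kcnj15 (4.01 to 12.8). Kcnj12, for the related Kir2.2, reached 10.9-fold (7.45 to 15.4) from 30 fragments. Kcnj8, for Kir6.1, the pore of the ATP-sensitive channel of vascular smooth muscle, held 2 peaks of 8.22-fold (6.28 to 10.6) and 7.09-fold (4.80 to 10.1). Its counterpart Kcnj11, for Kir6.2 of pancreas and muscle, had none, and Kcnj13, for Kir7.1, an inward rectifier of myometrium and epithelia, had none.

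K2P channels carry the background leak current and had a peak in 9 of 14 genes (64.3%), against 55.7% of all protein-coding genes. Kcnk12, for THIK-2 (NCBI Gene 210741, chromosome 17), held 3 peaks at 17.05-fold (11.4 to 24.5), 11.5-fold (8.28 to 15.7) and 7.36-fold (4.63 to 11.2), and the last 2 stood at the end and at the start of the gene. Kcnk5, for the alkali-opened TASK-2, reached 13.04-fold (10.2 to 16.4) from 70 fragments, 2123 bases before its end, and 8.90-fold (5.60 to 13.5) at 263 bases from its start. Kcnk2 held 8 peaks. Its highest covered part of the window of a further internal start, with 69 bases of that window under the peak, and reached 12.1-fold (7.59 to 18.3) from 20 fragments, and that summit also lay in A430027H14Rik. The best covered Kcnk2 peak lay 1942 bases before the gene end, at 10.03-fold (7.87 to 12.6) from 71 fragments in a single gene. Kcnk3, for the acid-closed TASK-1 of smooth muscle, had 1 peak of 7.42-fold (4.01 to 12.8). No peak was listed in Kcnk4, Kcnk7, Kcnk9, Kcnk15 or Kcnk16.

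The alpha1 subunits form the calcium pore, and 5 of 9 genes carried a peak (55.6%), against 55.7% of all protein-coding genes. Cacna1h, for the low-voltage T-type channel Cav3.2 (NCBI Gene 58226, chromosome 17), had the highest, at 25374843 to 25376180, of 16.1-fold (11.5 to 22.05) from 37 fragments. Its T-type relative Cacna1g reached 9.68-fold (6.59 to 13.8), while Cacna1i, the remaining T-type gene, had none. Cacna1a, for the P/Q-type channel of nerve endings, held 9 peaks between 4.21-fold and 14.2-fold, and 2 of its summits also lay in non-coding genes. Cacna1e, for the R-type channel, reached 13.4-fold (9.14 to 19.1) from 29 fragments, 7627 bases before its end. Cacna1d, for the L-type channel Cav1.3, held 5 peaks between 4.50-fold and 6.84-fold, of which the top one had 9 fragments at the genome-wide background. Cacna1s of skeletal muscle, Cacna1f of the retina and Cacna1b of the N-type channel had none.

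Of the calcium channel auxiliary genes, the beta subunit genes carried a peak in 3 of 4, the alpha2delta genes in 2 of 4 and the Cacng genes in 3 of 8. The share over all protein-coding genes was 55.7%, and these counts are small. Cacnb2 (NCBI Gene 12296, chromosome 2), whose product brings the pore to the membrane and speeds its opening, held 16 peaks, the most of any channel gene. The highest, at 14985505 to 14986024, reached 13.4-fold (10.9 to 16.3) from 95 fragments and lay 2966 bases before the gene end. The other 15 ran from 2.94-fold to 10.96-fold, and 5 summits fell within 5000 bases of each other inside the gene. Cacnb3 reached 7.56-fold (5.52 to 10.1) from 43 fragments, 190 bases before its end, and Cacnb1 reached 7.42-fold (4.01 to 12.8). Cacnb4 had none.

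Cacna2d1, the alpha2delta subunit that carries calcium channels to the surface, held 6 peaks, with a highest of 11.8-fold (7.43 to 17.9) from 20 fragments and a better covered end peak of 9.35-fold (6.83 to 12.5) from 43. Cacna2d3 had 1 peak of 6.32-fold (3.33 to 11.1) in a span of 817833 bases, and Cacna2d2 and Cacna2d4 had none. Cacng4, which encodes an AMPA receptor partner (NCBI Gene 54377, chromosome 11), had 1 peak at 107733219 to 107734107 of 15.7-fold (10.98 to 21.7) from 34 fragments. Cacng1 of skeletal muscle and Cacng8 each had 1 peak of 6.84-fold (3.50 to 12.4) from 9 fragments at the genome-wide background. The remaining Cacng2, Cacng3, Cacng5, Cacng6 and Cacng7 had none.

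Long channel genes differed widely in their number of peaks. Cacnb2 with 16, Kcnb2 with 14, Kcnd3 with 12, Kcnq5 with 10 and Cacna1a with 9 stood high, in spans of 222113 to 564252 bases. In contrast Kcnip4, the longest channel gene at 1135620 bases, had 1 peak of 8.04-fold (4.45 to 13.6), and Kcnh7 at 490878 and Kcnh8 at 376486 bases had none. Kcnip4, Kcnh7 and Kcnh8 were picked with their values in view. Across the 116 channel genes the rank correlation between span and number of summits was 0.28, and across all protein-coding genes it was 0.41. These are descriptions over genes that share the same libraries.

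**Figure D4:**
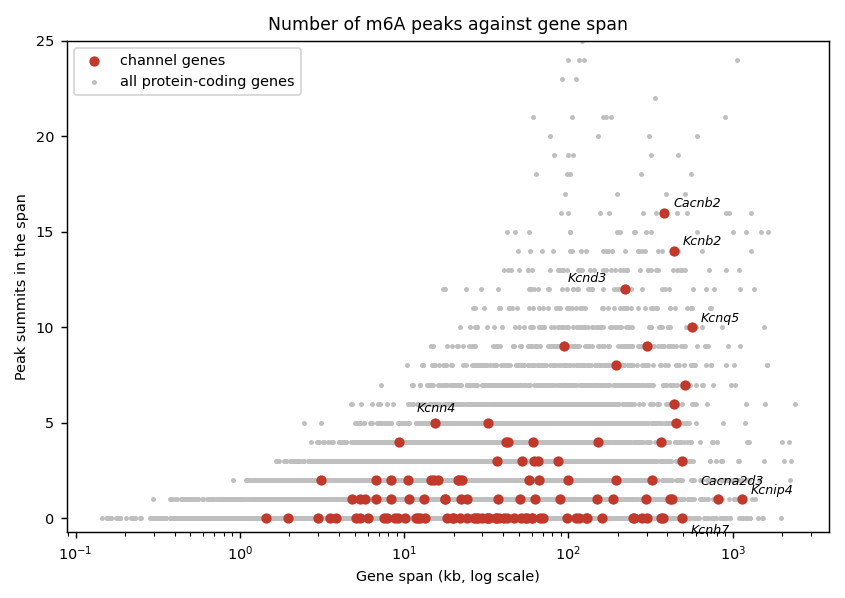
Number of peak summits in each gene (y axis) against its span in kb (x axis, log scale), for the 116 channel genes in red and all protein-coding genes in grey. The y axis ends at 25 summits, which leaves out 17 grey genes. Cacnb2, Kcnb2, Kcnd3 and Kcnq5 hold 10 or more, while Kcnip4 and Cacna2d3, with longer spans, hold 1 each and Kcnh7 holds none.

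Along the genes, summits were found at the ends and deep inside. Within 1000 bases of either gene end lay 41 of the 200 channel summits (20.5%), against 25.2% over all protein-coding genes. Within 5000 bases of either end lay 48.5% of them, against 55.0% over all genes, and the other 103 lay deeper. Where the strand was known, 17 of 142 channel summits (11.97%) lay in the last 1000 bases, against 15.9% over all genes. A further 13 (9.15%) lay in the first 1000 bases, against 10.5% over all genes. In the last 10% of the span lay 46 (32.4%), against 29.6% over all genes. None of these differences was tested.

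A summit near the transcript end recurred in the genes with several peaks. Of 19 channel genes of known strand with 3 or more summits, 18 had one in the last 10% of the span, all but Kcnip1, against 75.4% of such genes overall. In 7 of 43 channel genes of known strand with a peak (Cacnb3, Kcna6, Kcne3, Kcnip2, Kcnip3, Kcnk13 and Kcnn1) the highest summit itself lay in the last 1000 bases, against 20.6% of all such genes. Summits within 1000 bases of both ends were present in 6 channel genes, namely Kcna6, Kcnk12, Kcnk2, Kcnk5, Kcnn3 and Kcnn4 (14.0%), against 12% of all such genes. Among the summits within 1000 bases, the start summit had the higher fold in Kcnk2, Kcnk5, Kcnn3 and Kcnn4, and the end summit in Kcna6 and Kcnk12. The intervals of these ends did not overlap in Kcnn4 and Kcna6 and overlapped in the other genes. For Kcnk2 and Kcnk5 the order depends on this distance. Kcnk5 reached 13.04-fold at 2123 bases before its end, against 8.90-fold at its start. Kcnk2 reached 10.03-fold at 1942 bases before its end, against 4.64-fold at its start.

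**Figure D5:**
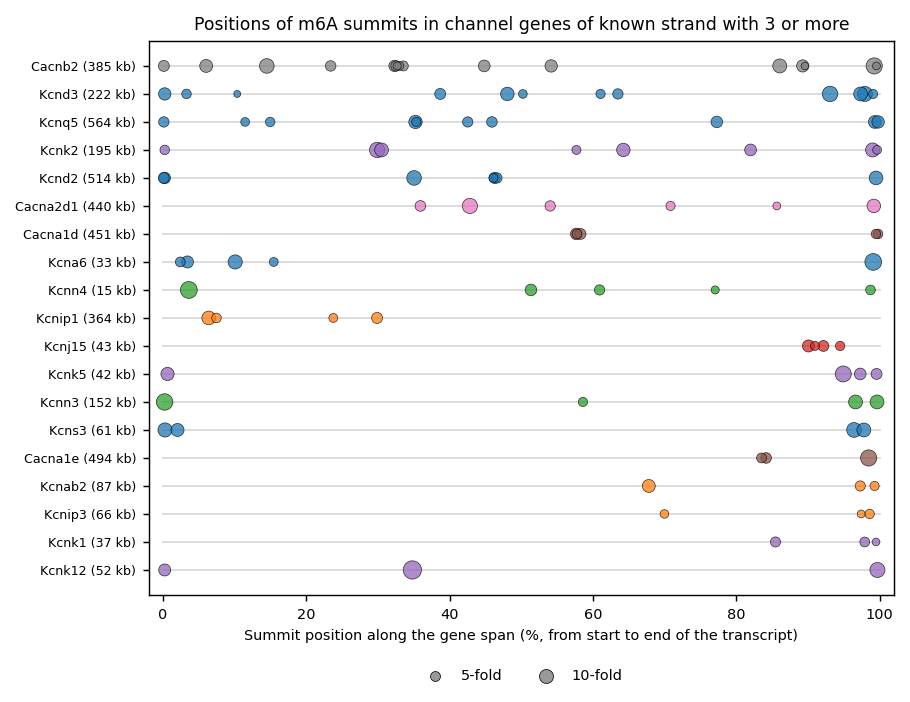
Position of each m6A summit along the gene (x axis, % of the span from transcript start to end) in the 19 channel genes of known strand with 3 or more summits (y axis, with the span in kb). The area of a point grows with its fold and colours are the role groups. In 18 of the 19 genes a point lies in the last 10% of the gene, while Kcnip1 has none there.

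Of 22 channel genes taken for known roles in uterine or other smooth muscle, 17 carried a peak and 8 carried one of at least 10-fold, where the shares over all protein-coding genes were 55.7% and 17.5%. The list was picked by hand with earlier results known, so these counts are a description. Among the 5 without a peak were Kcnj11, Kcnj13, Kcnh2 and Kcnmb4. The 4 channel genes left out by the rule all had peaks, with 9 in Kcnma1, 2 in Kcnmb1, 19 in Kcnq1 and 9 in Cacna1c. Their highest folds were 7.86, 9.56, 7.18 and 11.5 in that order, and both Kcnmb1 summits also lie in Kcnip1.

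Genes that work with these channels were taken as a further list. Of 45 such genes 28 had a peak (62.2%), against 55.7% of all protein-coding genes, with a median highest fold of 9.13 and 9 genes at 10-fold or more. Calcium release, entry and pump genes with calmodulin had peaks in 17 of 21, proteins that bind or regulate the channels in 8 of 16, and other ion channels in 3 of 8. The counts within sublists are small, and their difference from all genes was not tested. Hcn4, a pacemaker channel of the last of these sublists, was highest at 21.7-fold (17.6 to 26.5) from 94 fragments. Ryr3, a calcium release channel of the sarcoplasmic reticulum, reached 20.1-fold (14.1 to 27.9), and Rem1, a small GTPase that inhibits calcium channels through their beta subunit, reached 17.1-fold (13.4 to 21.6). Abcc8 and Abcc9, the sulfonylurea receptors that join Kir6 pores, had none. Abcc8, Abcc9 and the division of the list were picked with the values in view.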

How the data were processed

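m6A was measured by MeRIP-seq in 1 immunoprecipitated and 1 input library of TRIzol-extracted whole uterus RNA, made with a directional kit per the labels' protocols. HISAT2 2.2.1, MACS3 3.0.0a7 and mm10 are named in the submitters' processing notes. Tool settings and duplicate handling are not stated there.

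The authors deposited a list of peaks with fold enrichment (a ratio to local background), −log10 p and −log10 q at the summit. The deposited display score was not used. Coordinates, deposited from 0, are printed from 1, and the list has no strand. The lowest −log10 q was 1.32. IP fragments k and background were recovered from fold = (k + 1)/(background + 1) and the Poisson p-value, within 0.001 of the deposited −log10 p at 100% of peaks, by a method tested on simulated data. PCR copies are not independent molecules.

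RefSeq tables of GRCm38.p6 gave gene spans, after 365 rows outside the assembled chromosomes were dropped, and start sites with strand. Exons were not used.

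Members and lists were chosen with earlier results of these data known. Named were the top 12 by fold, among summits in 1 gene with −log10 q of 5 or more, the 5 with most summits, the 2 highest of each of 9 role groups, group members with or without a peak where at most 5, 22 channels of uterine or smooth muscle role, and the 3 highest partners. Further genes were picked with their values in view, and a few genes met by these rules are left unreported. Alternatives changed the peak threshold, the link of peak to gene, the score per gene and the distance to a gene end. Tools were Python 3.11.15 with scipy 1.17.1, pandas 2.3.3, numpy 2.4.6 and matplotlib 3.10.9.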

Additional observations from a re-analysis of the deposited data

How the results depend on the processing

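The count of 61 channel genes with a peak ran from 58 to 61, the 200 summits from 164 to 201, and the 26 genes with a 10-fold peak kept their number, under all 6 alternative peak sets and links. The 6th, merging of same intervals, changed nothing because no interval was listed more than once. The number of role groups above the share of all genes was 4 or 5. The partner count was 26 to 28. The median highest fold of 9.11 ran from 9.11 to 9.42, and it was 6.96 with the median over the peaks of a gene. Relative to all peak-carrying genes, the log2 ratio of this median was 0.18 and ran from 0.14 to 0.20 with the fold, but reversed to -0.21 with the highest −log10 q per gene. Within 250 bases of a gene end lay 6.00% of channel summits, against 9.55% of all, and within 5000 bases 48.5%, against 55.0% of all. Of 207 recomputed highest folds of named genes, 206 stayed within their counting interval, and Kcnip1 moved to 4.03 with summits in 1 gene. Kcnab1 had no peak left at −log10 q of at least 5 or with summits in 1 gene, nor had Kcne4 with the latter. No paired analysis was possible because each group holds 1 library. Depth limits folds most where few fragments carry a peak: 11 of the 61 highest peaks rest on fewer than 10 IP fragments.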
